A study of Mus musculus with 2 samples.

Results

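The shores of promoter CpG islands were examined in myotubes, the multinucleate muscle cells formed in culture from mouse C3H myoblasts, 48 h after transfection with a control siRNA (siCon) or with an siRNA against the long noncoding RNA H19 (siH19). A promoter island overlapped the transcription start of a protein-coding gene and had a length of 200 bp or more, a GC content of 50% or more and CpGs at 0.6 or more of the number its base composition predicts. A shore was the 2 kb outside either edge of such an island, leaving out bases that lay in any island. The members were the autosomal shore cytosines with at least 5 reads in both libraries, outside the recognition sites of the restriction enzymes MspI (CCGG) and TaqαI (TCGA). There were 47266 of them at 28819 CpGs, among 1795680 such cytosines on the 19 autosomes and 3416032 cytosines with that depth in the whole series. Upstream shores, on the side facing away from the gene, held 18580 cytosines and downstream shores, on the side the gene runs into, held 25425. A further 3261 flanked bidirectional islands, which hold starts on both strands, and had no upstream side.

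DNA methylation was read by reduced representation bisulfite sequencing, in which restriction fragments of a chosen size are treated with bisulfite so that unmethylated cytosine is read as T and methylated cytosine as C. There was 1 library per transfection and no replicate. Every test below therefore compares 2 libraries and not 2 conditions, and differences between cultures or library preparations cannot be told apart from the knockdown. The level of H19 RNA cannot be checked in methylation data. The siCon library held 104999613 reads summed over 5453019 cytosines, and the siH19 library held 106372792 reads over 5266846. Shore cytosines had a median depth of 22 reads in siCon and 19 in siH19.

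Cytosine methylation in mammals is placed by the DNMT3 enzymes and copied by DNMT1, both of which use S-adenosylmethionine as methyl donor. The by-product, S-adenosylhomocysteine, inhibits these enzymes and is removed by SAHH, which the study examined as a protein partner of H19. CpG islands at promoters are usually free of methylation and the surrounding genome is usually methylated, so that the shore is the stretch over which the state changes. Shores are also known as places where methylation differs between tissues. The comparison asked whether that transition, or the level along it, differed between the siCon and siH19 libraries.

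Coverage of the shores was partial, as fragments are chosen by restriction sites. Of 24578 possible shores around 12289 promoter islands, 10294 shores of 8012 islands held at least 1 member cytosine. A total of 3568 shores held at least 5 member cytosines, 31044 in all, and were tested as regions, while 6726 held 1 to 4. Another 61293 shore cytosines reached 5 reads in both libraries but lay inside a restriction site and were left out.

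A set of 5 stretches of shore was chosen to show what was measured. They are shown as the plus strand of GRCm38 from the RefSeq genome sequence, with each CpG that held a member cytosine in capitals. The Prkcd stretch (chr14:30626563-30626654, upstream, outside genes) belonged to a shore called higher in siH19 that held no repeat. The Gnb1l and Rtl10 stretch (chr16:18496898-18496970, upstream, outside genes) belonged to the called shore that met all the criteria for naming. The Chaf1b stretch (chr16:93884906-93884959, downstream, intron) belonged to the only shore called lower in siH19. The Ahcy stretch (chr2:155074890-155074953, upstream, intron) lay beside the gene of SAHH. The Six4 stretch (chr12:73110866-73111089, downstream, intron) was from a shore with little methylation beside a muscle regulator. None of these windows overlapped an annotated exon.
Prkcd: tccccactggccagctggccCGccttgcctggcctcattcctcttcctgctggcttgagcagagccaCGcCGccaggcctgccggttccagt
Gnb1l and Rtl10: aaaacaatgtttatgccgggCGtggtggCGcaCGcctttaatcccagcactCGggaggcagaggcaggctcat
Chaf1b: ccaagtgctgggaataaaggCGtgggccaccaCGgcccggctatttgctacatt
Ahcy: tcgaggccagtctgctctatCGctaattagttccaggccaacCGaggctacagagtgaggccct
Six4: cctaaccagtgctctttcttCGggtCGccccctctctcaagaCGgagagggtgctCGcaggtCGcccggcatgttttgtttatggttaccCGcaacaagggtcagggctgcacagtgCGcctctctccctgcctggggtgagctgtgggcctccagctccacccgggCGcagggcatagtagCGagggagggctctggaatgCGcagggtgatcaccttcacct
Soft-masked repeat sequence made up 64 of the 73 bases shown for Gnb1l and Rtl10, 36 of 54 for Chaf1b and 40 of 64 for Ahcy. The Prkcd and Six4 stretches held no repeat sequence.

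The dominant pattern in both libraries was a steep rise of methylation with distance from the island. Inside the islands, within 200 bp of the upstream edge, the level was 8.36% in siCon and 8.51% in siH19. In the first 200 bp of the upstream shore it was 22.8% in siCon and 23.1% in siH19, and in the last 200 bp it was 53.0% and 53.6%. On the downstream side the level within 200 bp inside the edge was 9.74% in siCon and 9.90% in siH19. It was 15.2% and 15.6% in the first 200 bp of the downstream shore and 61.8% and 62.4% in the last. Both sides passed 50% in the step from 801 to 1000 bp, in both libraries. These levels give each cytosine the same weight in both libraries. The upstream level reached its maximum of 57.6% in siCon and 58.3% in siH19 between 1401 and 1600 bp, while the downstream level was highest in the last step.

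**Figure D1:**
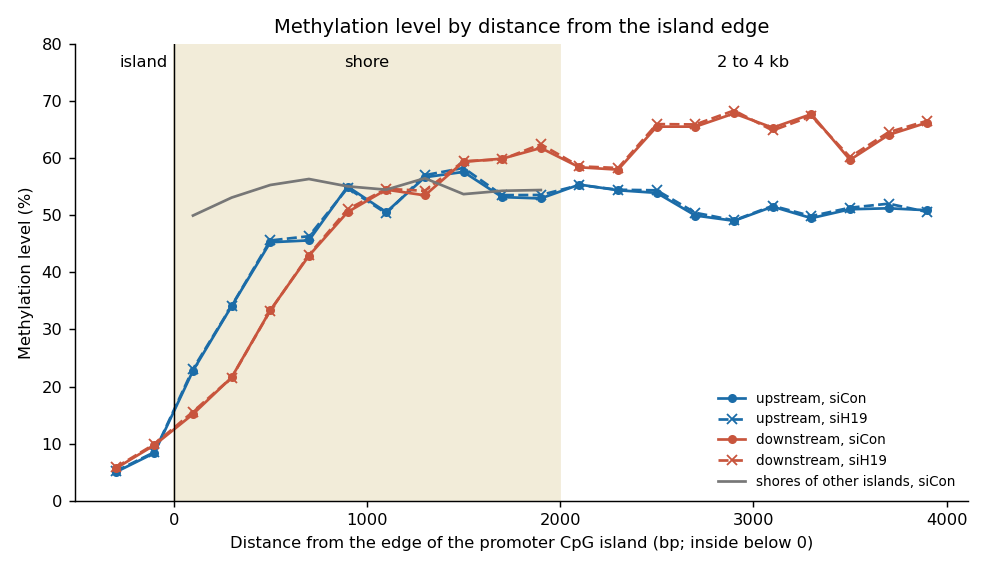
Methylation level (%) against distance from the promoter-island edge in bp, by 200 bp step, for siCon (solid lines) and siH19 (dashed lines), upstream in blue and downstream in red; grey is the siCon level in shores of other islands. The dashed and solid lines nearly coincide, the downstream curve starts at 15.2% and the upstream curve at 22.8% in siCon, and the curves cross beyond 1000 bp.

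Shores of the other computed islands, those without a protein-coding start, showed no such slope. Their siCon level was 49.95% in the first 200 bp and 54.4% in the last. These other islands were themselves at 35.0% inside in siCon, and their slope was not split by that level. The contrast with promoter islands therefore does not compare islands of like level. Between 2 and 4 kb from promoter islands the level was 59.2% in siCon and 59.4% in siH19, beside 37.4% and 37.6% over the promoter-island shores as a whole and 5.59% and 5.74% inside the promoter islands. Shores of bidirectional islands climbed further, from 9.14% in siCon and 9.11% in siH19 in the first step to 76.9% and 77.7% in the last.

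The steepness of the transition went with the state of the island itself. Of the 8923 islands with an inside level below 10% in siCon, 3138 had member cytosines upstream and 3639 downstream, and these shores carried it. Upstream, the siCon level was 21.9% at 1 to 400 bp, 49.7% at 401 to 1000 bp and 56.9% at 1001 to 2000 bp. Downstream it was 11.3%, 39.4% and 61.6%. Of the 1891 islands with an inside level of 10 to 50%, 785 had member cytosines upstream and 932 downstream. Their upstream shores were at 38.9% near the edge and 41.8% far from it, and their downstream shores at 34.5% and 46.5%. Of the 470 islands at 50% or more, 180 had member cytosines upstream and 201 downstream. Shores on both sides of these lay between 49.6% and 63.5% in siCon at every distance. The siH19 levels in these classes differed from the siCon levels by less than 1 point throughout. A methylated shore was common next to an unmethylated island. Of 2533 tested shores of promoter islands below 10%, 1006 (39.7%) were above 50% methylated in siCon. Among 492 tested shores of other islands below 10%, 159 (32.3%) were.

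**Figure D2:**
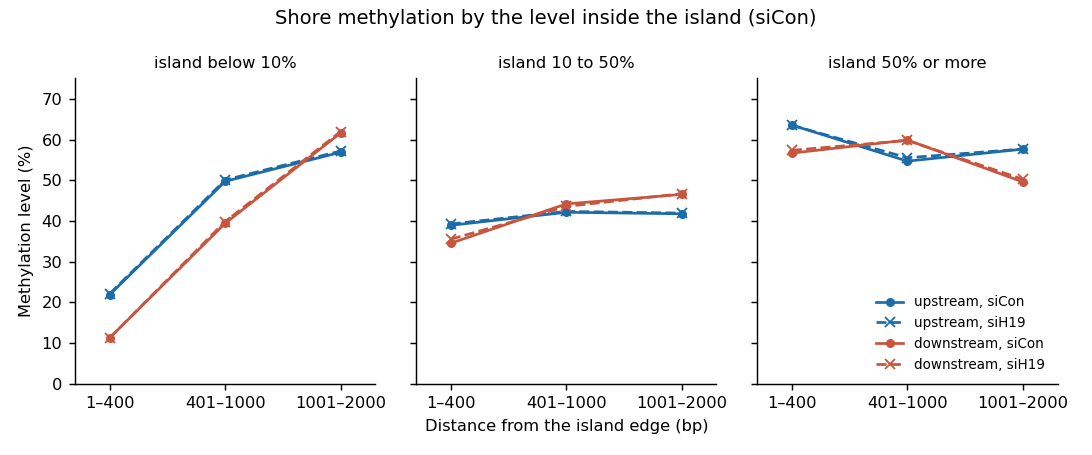
Methylation level (%) of upstream (blue) and downstream (red) shores at 3 distances in bp from the edge, for islands grouped by their own level in siCon, with siCon as solid and siH19 as dashed lines. The rise with distance stands in the group of islands below 10%, from 11.3% to 61.6% downstream in siCon.

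Upstream and downstream shores differed in shape. Over the whole 2 kb, the downstream level differed from the upstream level by -5.58 points in siCon and by -5.61 points in siH19, and it was lower on 18 of 19 autosomes in each library. The near steps set this sign. The downstream level was lower in 6 of 10 steps, with differences down to -12.5 points in siCon, and higher by up to 8.83 points in siCon and 8.88 in siH19 in the outer steps. With stricter islands (at least 500 bp, 55% GC and a ratio of 0.65) and the shores redrawn around them, the difference over the whole 2 kb was -1.003 points in siCon and -0.949 in siH19. Of 290 islands with both shores tested, the downstream shore was lower at 148 and higher at 142 in siCon, with a median difference of -0.594 points. It was lower by 20 points or more at 97 islands and higher by as much at 71, and the medians were 35.6% downstream and 45.8% upstream. The levels of the 2 shores of an island had a Pearson r of 0.174 across these islands. These are descriptions without a test.

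Gene structure and base composition varied along with the level. Downstream, member cytosines in exons were more methylated than those in introns at every distance, 23.5% against 15.8% in siCon at 1 to 400 bp, 50.4% against 36.6% at 401 to 1000 bp, and 66.6% against 53.3% at 1001 to 2000 bp. Upstream the levels in exons and introns were 27.7% and 25.1% near the edge, 45.0% and 45.5% in the middle, and 63.1% and 52.8% at 1001 to 2000 bp. Cytosines with more CpGs around them were less methylated. In upstream shores the siCon level was 49.8% with 1 to 3 CpGs within 100 bp and 24.0% with 10 or more, and in downstream shores 45.4% and 26.9%. Soft-masked repeats held 16.2% of member cytosines. In upstream shores repeat cytosines were at 53.7% in siCon and 54.5% in siH19, and the others at 37.8% and 38.0%.

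Single islands showed how varied the transitions were. The 6 described here had covered cytosines in the most 200 bp steps. At Gng7, a G protein gamma subunit gene on chromosome 10, the upstream shore was at 3.75% in siCon and 4.31% in siH19 and the downstream shore at 52.5% and 59.3%. At Ptprs, a receptor tyrosine phosphatase gene on chromosome 17, the order was the opposite, with 66.9% and 67.7% upstream and 6.68% and 6.98% downstream. The downstream shore of Arhgef10l, a guanine nucleotide exchange factor gene on chromosome 4, was at 3.08% in siCon and 1.07% in siH19 in its inner 1000 bp and at 87.3% and 90.1% beyond. Dohh, which encodes the enzyme completing hypusine in the translation factor eIF5A, rose downstream from 44.0% and 46.7% to 89.4% and 85.3%. The downstream shore of Hps6, a gene for the biogenesis of lysosome-related organelles, was at 80.2% and 82.3% beside an island at 2.39% and 2.67%. Epop, a gene of a Polycomb-associated protein, had an island at 40.4% in siCon and 43.8% in siH19 and shores between 30.01% and 39.98%. The 95% interval of the difference between libraries included 0 in every shore of these 6 islands that had covered cytosines.

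Set against this range, the difference between the libraries was small. Over all member cytosines siH19 was higher by 0.236 percentage points (95% interval 0.154 to 0.317, counting error only). Upstream shores stood at 40.6% (siCon) and 40.9% (siH19), 0.271 points apart (0.131 to 0.412, p = 0.000167 by the Cochran-Mantel-Haenszel chi-square test stratified by cytosine). Downstream shores were at 35.0% and 35.3%, a difference of 0.237 points (0.132 to 0.343, p = 1.14e-05 by the same chi-square test). Shores of bidirectional islands were at 39.0% in both libraries, with a difference of 0.0289 points (-0.259 to 0.317). Differences by autosome lay between -0.139 and 0.647 points, and 15 of 19 autosomes were higher in siH19.

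The size of this difference depended on how reads were combined. Shares of all shore reads summed without regard to cytosine were 36.7% methylated in siCon and 38.8% in siH19, 2.13 points apart. The same sum differed by 0.214 points inside promoter islands and by -0.501 points over all autosomal cytosines. Summed in that way upstream shores differed by 2.42 points and downstream shores by 1.87 points, and a cytosine with unequal depth in the libraries then has unequal weight in them. The unweighted mean over downstream cytosines differed by 0.0874 points, which no longer passed the threshold. Keeping the restriction-site cytosines gave 0.573 points upstream and 0.397 points downstream.

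Along the shore, siH19 was higher in 15 of 20 steps. The differences ran from -0.266 points (upstream, 801 to 1000 bp) to 0.793 points (downstream, 1201 to 1400 bp). The interval lay above 0 in 7 steps and below 0 in 0 steps, and 4 steps had an adjusted p under 0.05 by the Cochran-Mantel-Haenszel chi-square test with Benjamini-Hochberg adjustment over the 20 steps. The first downstream step, from 15.2% to 15.6%, had the smallest p of all steps, 3.11e-06 unadjusted. The shift did not change evenly with distance, and neighbouring steps lay on either side of 0.

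**Figure D3:**
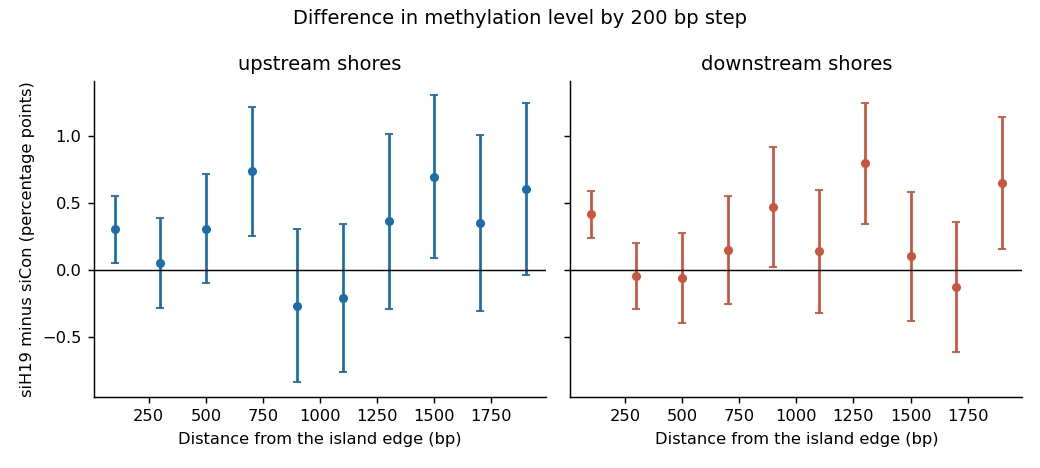
Difference in methylation level, siH19 minus siCon in percentage points, in each 200 bp step of the upstream (left) and downstream (right) shores, with 95% intervals from counting error. Points lie between -0.266 and 0.793, and 15 of 20 are above 0.

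The shift was not shown to be particular to shores. Inside promoter islands siH19 was higher by 0.152 points, which was 0.0836 points less than in the shores (95% interval of the difference of differences 0.00161 to 0.166). Those islands were at 5.59% in siCon and the shores at 37.4%, so the points start from unlike levels. Inside other islands the difference was 0.333 points (0.306 to 0.360), above the 0.236 in the shores. Over all autosomal cytosines outside the promoter-island shores siH19 was higher by 0.222 points, 0.0135 points less than in the shores (-0.0686 to 0.0956). Between 2 and 4 kb from promoter islands it was higher by 0.242 points, and the shores differed from that by -0.00574 points (-0.155 to 0.143). Shores of other islands were higher by 0.244 points, and the promoter-island shores differed from them by -0.00771 points (-0.107 to 0.0918). The upstream difference exceeded the downstream one by 0.0339 points (-0.142 to 0.210). In upstream shores repeat cytosines were higher in siH19 by 0.740 points and the others by 0.172 points, 0.568 points apart (0.173 to 0.963), while downstream the repeat and other cytosines were 0.0705 points apart (-0.346 to 0.487). Reads in siH19 were 1.26 times those in siCon at upstream repeat cytosines and 0.926 times at the others. Downstream the read ratios were alike, 1.27 at repeats and 0.921 at the others, and the part of depth in the upstream difference was not tested.

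Single cytosines changed in both directions. A strongly changed cytosine had a two-sided Fisher's exact test p under 0.05 and a difference of at least 33 points. Among the 47266 members 268 (0.567%) were strongly higher in siH19, beside 0.5% of all autosomal cytosines tested, and 218 (0.461%) were strongly lower, beside 0.456%. All autosomal cytosines include 721443 inside promoter islands, at 5.59% methylation in siCon, where 0.165% were strongly higher and 0.192% strongly lower. In shores of other islands the shares were 0.774% and 0.654%, and 2 to 4 kb from promoter islands 0.725% and 0.661%. The promoter-island shores thus lay near the shares over all cytosines and below those in both of these neighbouring parts. With Benjamini-Hochberg adjustment over all 1795680 cytosines, 1 shore cytosine had an adjusted p under 0.05 by Fisher's exact test, beside 0.00629% of all cytosines, and 1215 (2.57%) had an unadjusted p under 0.05, beside 2.48% of all. It lay 479 bp downstream of the island of Kbtbd11 (chromosome 8, position 15012564, minus strand) and was methylated in 57.1% of 14 reads in siCon and 0 of 50 reads in siH19, which allows up to 6.00% (adjusted p = 0.0226 by Fisher's exact test). Within the shores, strong changes were more frequent in repeats, with 0.940% of 7659 repeat cytosines higher and 0.783% lower. Among the other 39607 the shares were 0.495% and 0.399%. The same split was not made over all autosomal cytosines. Upstream, repeat cytosines held 71045 siCon reads at 4171 cytosines and the others 388515 at 14409. Their siCon levels were 53.7% and 37.8%, and the part of depth and level in this contrast was not tested.

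Comparing the strands of each CpG gave a measure of spread within a library. It also counts strand differences of a site that recur in both libraries, and how many did was not tested. At 18447 shore CpGs covered on both strands, plus and minus cytosines of the same library differed at p under 0.05 by Fisher's exact test in 3.74% of CpGs in siCon and 3.69% in siH19. The libraries differed at that threshold in 2.53% of plus and 2.81% of minus cytosines. Over all 735685 autosomal CpGs covered on both strands these shares were 3.42% and 3.22% between strands, and 2.49% and 2.47% between libraries. Of 350 strongly changed shore cytosines with a covered partner, the partner moved the same way in 171 (48.9%), beside 48.0% of 11997 such cytosines on all autosomes. Strong changes on both strands of 1 CpG, named here because there were 3, beside 150 of the 735685 autosomal CpGs, were found in the downstream shores of Dhcr7, Prr36 and Chaf1b. At Dhcr7, the gene of the last enzyme of cholesterol synthesis, the level was 33.3% of 6 plus-strand reads and 30% of 20 minus-strand reads in siCon, and 90.9% of 11 and 66.7% of 42 in siH19. At Prr36 it was 42.9% of 14 and 50% of 16 in siCon, and 81.8% of 33 and 94.4% of 36 in siH19.

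Shore by shore, the libraries were alike. Levels of the 3568 tested shores had a Pearson r of 0.989 between the libraries, and the shores share both libraries. In siCon 1268 shores were below 20% methylated, 1666 between 20 and 80%, and 634 above 80%, and in siH19 1247, 1692 and 629. The median difference was 0.290 points, with 1904 shores higher and 1637 lower in siH19. Shores with an unadjusted p under 0.05 by the Cochran-Mantel-Haenszel chi-square test made up 11.2%, beside 11.1% of the shores of all islands. A shore was called at an adjusted p under 0.05, over 12982 shores of all islands, with at least 10 points between libraries. Of the promoter-island shores 9 were called higher in siH19, where 0.223% of all shores were called, and 1 lower, where 0.077% of all shores were called. The quasi-binomial test, which scales the error by the spread among the cytosines of a shore, called 0 shores after adjustment, with 121 of 3568 promoter-island shores and 446 of 12982 shores of all islands at an unadjusted p under 0.05. The Cochran-Mantel-Haenszel test treats reads at neighbouring cytosines as independent, although cytosines of 1 fragment share reads.

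**Figure D4:**
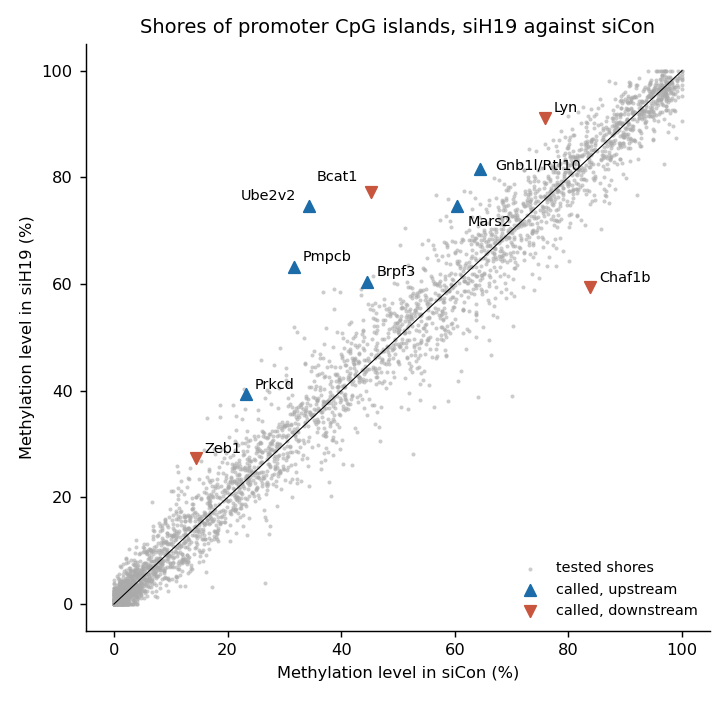
Methylation level (%) in siH19 against siCon for the 3568 tested shores of promoter CpG islands (grey), with the 10 called shores as coloured triangles named by gene. The line marks equal levels; 9 called shores lie above it and Chaf1b lies below.

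All 10 called shores are named here, and all but that of Gnb1l and Rtl10 were chosen after their values were seen. The shore upstream of Gnb1l, which encodes a WD-repeat protein, and Rtl10, a retrotransposon-derived gene, rose from 64.5% of 103 reads in siCon to 81.5% of 319 reads in siH19, by 17.0 points (adjusted p = 0.0493 by the Cochran-Mantel-Haenszel chi-square test). All 10 of its cytosines lay in repeats, and with only shores of at least 10 cytosines tested, 0 shores were called higher. The largest differences were upstream of Ube2v2, a ubiquitin-conjugating enzyme variant, from 34.4% to 74.7% on 29 and 62 reads, and downstream of Bcat1, the cytosolic branched-chain aminotransferase, from 45.2% to 77.3% on 84 and 155 reads. All cytosines of both lay in repeats.

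Bcat1 had the smallest adjusted p, 0.00139 by the Cochran-Mantel-Haenszel chi-square test. Its minus-strand cytosines rose from 47.7% to 89.1% on 44 and 130 reads, and its plus-strand cytosines were at 40% and 52.0% on 40 and 25 reads. Each of its 4 CpGs had 8 to 17 siCon reads per strand, and on each strand read numbers were equal at 3 of the 4. Those 3 had 8 siCon and 5 siH19 reads on the plus strand, and 9 and 26 on the minus strand. The remaining CpG, at 936 bp, had 16 and 10 on the plus strand and 17 and 52 on the minus strand. Its minus strand had the smallest p in this shore, 1.16e-05 by Fisher's exact test. Why its read numbers were higher was not tested. The shore upstream of Prkcd, which encodes protein kinase C delta, held no repeat and had similar depth in both libraries, 350 and 363 reads. It rose from 23.2% to 39.3% (adjusted p = 0.00369 by the same chi-square test). All 6 of its cytosines, 118 to 168 bp from the edge, were higher in siH19, the plus strand from 18.6% to 47.3% and the minus strand from 25.4% to 35.5%. Cytosines this close can share fragments, and the adjusted p was 0.978 by the quasi-binomial test.

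Chaf1b encodes a subunit of chromatin assembly factor 1, which places histones on newly copied DNA. Its downstream shore fell from 83.8% of 82 reads in siCon to 59.5% of 137 reads in siH19 (adjusted p = 0.0266 by the Cochran-Mantel-Haenszel chi-square test). The fall was in the 2 CpGs shown above, 213 and 225 bp from the edge, where the 4 cytosines were at 80.4% in siCon and 26.6% in siH19 on 31 and 78 reads. At 213 bp the plus strand was methylated in 6 of 6 reads in siCon and 3 of 14 in siH19, and the minus strand in 10 of 12 and 8 of 26. The 6 cytosines between 1576 and 1649 bp were at 86.5% and 86.0%. The 4 near cytosines lay in repeat sequence, and 3 of them were strongly lower in siH19.

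**Figure D5:**
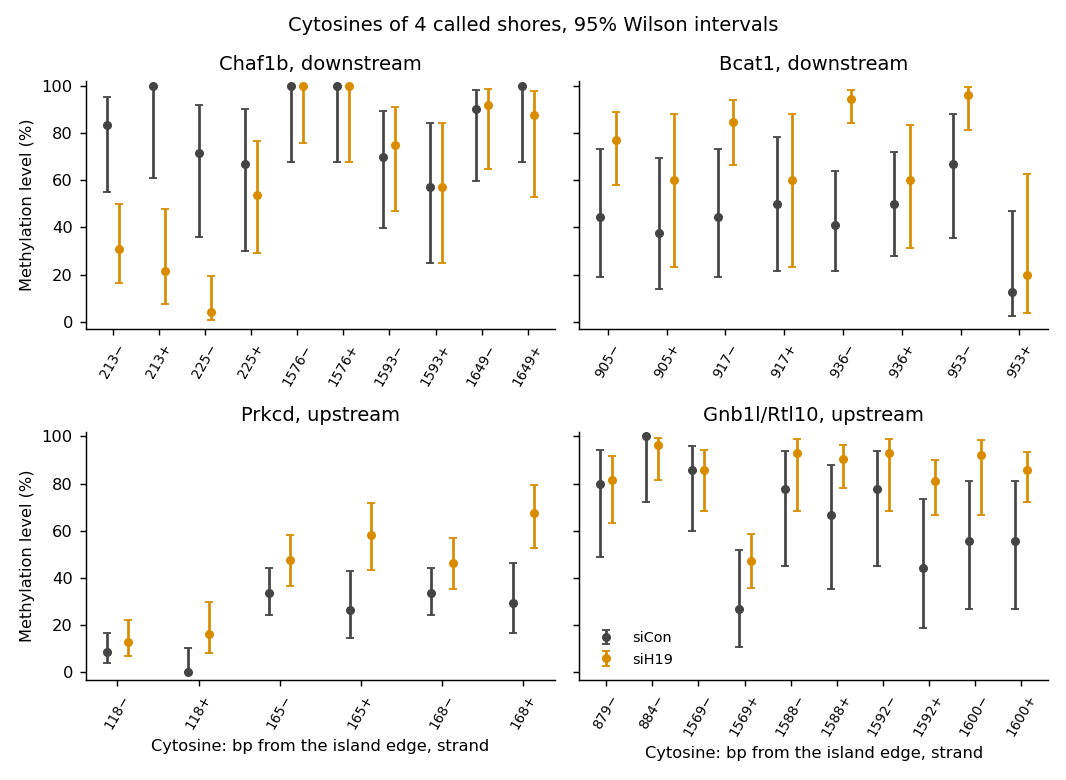
Methylation level (%) of each member cytosine in the shores of Chaf1b, Bcat1, Prkcd and Gnb1l/Rtl10, in order of distance from the island edge (bp) and strand, for siCon (dark) and siH19 (orange) with 95% Wilson intervals of the reads. At Chaf1b siH19 lies below siCon at 213 bp on both strands and at 225 bp on the minus strand, while the cytosines beyond 1500 bp coincide within their intervals.

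The other called shores rose in siH19 by 12.9 to 31.6 points. Upstream of Brpf3, a scaffold of histone acetyltransferase complexes, the level went from 44.6% to 60.4%. Upstream of Mars2, the mitochondrial methionyl-tRNA synthetase, it went from 60.4% to 74.6%, and upstream of Pmpcb, the catalytic subunit of the mitochondrial processing peptidase, from 31.6% to 63.2%. Downstream of Zeb1, a zinc finger repressor, it went from 14.4% to 27.3%. Downstream of Lyn, a Src family kinase, it went from 75.8% to 91.2%, and its plus-strand cytosines differed by 21.6 points and its minus-strand ones by -2.63. Summed without regard to cytosine, the Lyn reads were 84.4% methylated in siCon and 86.3% in siH19, and 3 of its 7 cytosines lay in repeats. Their adjusted p-values ran from 0.0266 to 0.0499 by the Cochran-Mantel-Haenszel chi-square test. Depth moved with the calls. Reads in siH19 were at least 1.5 times those in siCon in 8 of the 10 called shores and in 17.1% of all tested shores, and 6 of the 10, against 32.3%, held a repeat cytosine. When each cytosine was thinned to its lower depth, 2 shores were called higher and 0 lower, and without repeats 4 were called higher and 1 lower.

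A further 5 shores had an adjusted p under 0.05 with less than 10 points between libraries, and were not called, of which 4 are given here. Downstream of Gjc1, the connexin 45 gene, the level was 9.06% and 15.1%, and downstream of Fndc3b it was 1.81% and 6.11%. Downstream of Acvr1c, an activin-type receptor gene, it was 11.5% and 3.33%, and downstream of Irf2, an interferon regulatory factor gene, 3.02% and 0 of 478 reads. This allows a level of up to 0.628% (3 counts of the total, counting error only). The reads were summed over 9 cytosines and taken as independent, so the limit could be higher.

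Gene groups differed in the level of their shores, and 0 shores were called in any of the 10 lists by the Cochran-Mantel-Haenszel chi-square test, with 0 to 4 shores a list at an unadjusted p under 0.05, and 0 to 2 by the quasi-binomial test. Over all tested promoter-island shores the median siCon level was 37.6%, and 35.5% of shores were below 20%. None of the 10 lists was matched to these for distance from the island, along which the level rises. The part of distance in the levels of the lists was not tested. The 4 tested shores of myogenic regulators (3 of 16 genes) were all below 20%, with a median of 1.16%, and 0 of 4 had an unadjusted p under 0.05. That upstream of Pax7 was covered only at 99 to 167 bp from the edge, and that downstream of Mef2d at 56 to 294 bp. The 20 cytosines of Six4, a homeobox factor of muscle progenitors, lay 454 to 636 bp from the island and were at 1.09% in siCon and 2.28% in siH19. Those upstream of Mef2d, a factor that drives muscle genes with MyoD, lay over 1100 bp out and were at 1.23% in siCon and 0 of 144 reads in siH19. This allows up to 2.08% if the reads, summed over 6 cytosines at 1111 to 1117 bp, are independent. Cytosines of 1 fragment share reads, so the limit could be higher. Of 17 Hox shores 13 were below 20% and 3 above 80%, beside 634 of 3568 tested shores above 80%. Their median was 2.77%, with Hoxc12 at 94.5%, Hoxc6 at 87.2% and Hoxc5 at 81.4% in siCon, and 2 of 17 had an unadjusted p under 0.05. The shore with the largest fall among them, upstream of Hoxb9, was at 15.2% and 9.03% (p = 0.00613, adjusted p = 0.197 by the Cochran-Mantel-Haenszel chi-square test), and that with the largest rise, downstream of Hoxb5, was at 32.9% and 36.9%. Wnt ligand and Frizzled receptor shores had a median of 17.97%, 5 of 10 were below 20% and 2 were above 80%, upstream of Wnt10b at 87.2% and of Wnt5a at 91.4% in siCon. Downstream of Wnt5b the level was 61.6% in siCon and 77.4% in siH19 (adjusted p = 0.262 by the same chi-square test), and downstream of Wnt5a it was 8.19% and 3.96%.

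In the gene lists of basic cell functions and zinc fingers, the median siCon level was 62.8% over 27 ribosomal protein shores, 64.8% over 14 oxidative phosphorylation shores and 38.8% over 54 zinc finger shores, beside the 37.6% over all tested shores. Their median differences between libraries were -0.381, -0.148 and 1.46 points, beside 0.290 over all tested shores. Among the shores with the largest differences in either direction in these lists were those of Rpl23 (43.8% and 49.4% upstream), Cox4i2 (58.1% and 68.0% downstream), Cox4i1 (78.3% and 71.8%), Zfp90 (38.5% and 48.1% upstream) and Zfp661 (67.1% and 57.4% downstream), whose intervals included 0. The Cox4i1 shore flanked a bidirectional island shared with Emc8 and Gm27021. Other shores, chosen after their values were seen, had intervals that excluded 0 and an adjusted p over 0.05 by the Cochran-Mantel-Haenszel chi-square test. Upstream of Ndufaf3, an assembly factor of respiratory complex I, the difference was 9.57 points (2.20 to 16.9), upstream of Zfp622 it was -9.41 points (-15.3 to -3.52), upstream of Zfp593 it was 7.62 points (1.11 to 14.1) and downstream of Rpl6 it was -6.41 points (-12.1 to -0.668). Only 3 shores of contractile and coupling genes were tested. That upstream of Chrnb1, an acetylcholine receptor subunit, was at 53.4% and 48.8%. Another flanked a bidirectional island shared by Mylpf, a myosin light chain, and Tbc1d10b, and was at 1.64% and 1.66%.

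The methyl cycle list held 5 tested shores with a median siCon level of 67.3%. The shore upstream of Ahcy, the gene of SAHH, was at 67.3% of 138 siCon reads and 76.2% of 180 siH19 reads, 8.85 points apart with a 95% interval from -1.16 to 18.9 (adjusted p = 0.519 by the Cochran-Mantel-Haenszel chi-square test). At its 2 CpGs in capitals above the plus strand was methylated in 58.6% and 72.4% of 29 reads in siCon and 70.3% and 78.4% of 37 reads in siH19. A shore of the bidirectional island shared by Mtrr, methionine synthase reductase, and Fastkd3 was at 93.2% and 92.4%. Shores of imprinted genes, which are methylated on 1 parental copy at their control regions, had a median of 45.4%, and 7 of 10 were lower in siH19, beside 1637 of all 3568 tested shores. Downstream of Mkrn3 the level was 61.1% in siCon and 43.7% in siH19 (p = 0.00586, adjusted p = 0.195 by the same chi-square test), and downstream of Magel2 it was 59.4% and 68.0%. Downstream of Zrsr1, named after its value was seen, it was 41.9% of 412 reads and 26.0% of 172 reads, a difference of -15.8 points (-24.3 to -7.40, adjusted p = 0.0683 by the same chi-square test).

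The paper chose for follow-up 5 genes that were strongly hypermethylated with siH19 in its profiling and had important functions or links to disease. It reported a rise at a single region of each by quantitative methylation-specific PCR. Adding Sahh siRNA or an SAHH inhibitor brought these regions back to control levels, and adding Dnmt3b siRNA did so partly or fully. The paper found no change in DNMT3B occupancy at the regions where that protein was detected. A whole shore is a different measure, and whether those regions lie in the shores was not checked here. Of the 5 genes, Foxa2 and Cdt1 had tested shores. Downstream of Foxa2, an endoderm factor, the level was 26.5% of 293 siCon reads and 16.3% of 216 siH19 reads. The difference was -10.3 points (-17.2 to -3.39), with p = 0.00450 and adjusted p = 0.172 by the Cochran-Mantel-Haenszel chi-square test. By the quasi-binomial test p was 0.0362 and adjusted p 0.978. All 6 of its cytosines were lower in siH19. They lay 115 to 149 bp from the edge with nearly equal read numbers on each strand, so they may share fragments and are not separate support. The upstream shore of Foxa2 was at 40.3% and 36.6%. Downstream of Cdt1, which licenses replication origins, the level was 37.5% and 38.1%, a difference of 0.570 points (-2.86 to 4.00). Shores of Bmp8b, Casp2 and Setd2 held fewer than 5 member cytosines on either side and were not tested.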

How the data were processed

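Genomic DNA from myotubes of 2 transfections, siCon and siH19, was profiled by reduced representation bisulfite sequencing, with 1 library each, grouped by the labels. The authors used a commercial pipeline around Bismark, run as non-directional, in which filled-in bases were trimmed, and called each cytosine as C over C plus T reads. The submitters' processing notes name bcl2fastq 1.8.4 and mm10. Removal of duplicates was not given in the sources used here. The deposited values are a text field with methylated and total reads per cytosine and strand, without normalization. A score deposited by the authors, the fraction on a scale to 1000 rounded down, matched these counts in 100% of entries and was used as a parsing check.

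All 5779755 autosomal positions fell on CpG cytosines of GRCm38. Starts came from the GENCODE vM21 basic annotation. Islands were computed by joining passing 200 bp windows, shrinking each stretch until it passed as a whole and trimming it to its outer CpGs, which gave 76832 islands, 12289 of them with a protein-coding start (median length 914 bp). A set level weights each cytosine by n1n2/(n1+n2) in both libraries, where n1 and n2 are the depths. Differences have 95% intervals that cover counting error only, as PCR copies could not be told from separate molecules. Sets and shores were compared by the Cochran-Mantel-Haenszel chi-square test stratified by cytosine, single cytosines by two-sided Fisher's exact test, with Benjamini-Hochberg adjustment over all shores or all autosomal cytosines. The scripts used Python 3.11.15, numpy 2.4.6, scipy 1.17.1, pandas 2.3.3 and numba 0.67.0, and the tests were tried on simulated data.

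The shores and gene lists were chosen with earlier results of these data known. Named shores were called ones with at least 10 cytosines, at least 100 reads in each library and the same direction on both strands (up to 5 for each side and direction), the 6 islands outside chromosome 18 with starts on 1 strand and the most covered steps, the genes followed up by the study, and the largest difference in each direction in each list. Alternatives were other read minimums, summed strands, repeats, deep cytosines or restriction sites treated otherwise, equalised depth, stricter islands, orientation by the nearest start, and other weights, thresholds and tests. Some of the named results are not reported here.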

Additional observations from a re-analysis of the deposited data

How the results depend on the processing

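Upstream shores stayed higher in siH19 and past the threshold under every alternative run, and downstream shores under all but the unweighted mean of cytosine levels, which gave 0.0874 points. All of these tests took reads as independent, so none allowed for cytosines that share fragments. The quasi-binomial test was run on single shores only. The 268 strongly higher and 218 strongly lower cytosines became 166 and 128 with at least 10 reads, 34 and 24 with at least 20 reads, 128 and 122 with strands summed, 1189 and 970 with restriction-site cytosines kept, and 0 and 1 by adjusted p with Fisher's exact test. Equalised depth left 177 strongly higher, and a minimum of 25 points gave 425. Calls of whole shores, 9 higher and 1 lower, depended most on the settings. There were 1 higher and 3 lower with strands summed, 2 and 0 at equalised depth, 156 and 93 when the reads of a shore were summed for Fisher's exact test, and 0 and 0 by the quasi-binomial test. Shores called higher numbered 4 without repeats, 5 without the deepest 1% of cytosines, and 0 with at least 10 cytosines required. Shores called lower numbered 2 with at least 10 reads, 2 with at least 20, 8 with restriction-site cytosines, 3 with no minimum difference and 7 with stricter islands. The downstream level stayed below the upstream level over 2 kb, at -4.02 points in siCon and -3.96 in siH19 without repeats, -5.37 and -5.42 without the deepest 1%, -3.99 and -4.16 with restriction-site cytosines, -5.42 and -5.46 when oriented by the nearest start, -5.26 and -5.81 with reads pooled, -4.98 and -5.17 unweighted, and -1.003 and -0.949 with stricter islands. It was -5.45 in siH19 with at least 10 reads and -5.72 in siCon with at least 20. The cause of these changes was not tested. The other 47 of the 92 values recomputed kept their direction and their side of the threshold, or moved by less than their limit. With 1 library per group no library could be left out. No paired analysis was possible because each group had 1 library and no test used replicates. A median of 22 and 19 reads per shore cytosine limits single-cytosine comparisons to large differences.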
